A study of Mus musculus with 6 samples.

Results

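Clustered EZH2 peaks are sites of the Polycomb enzyme EZH2 that have another EZH2 site close by on the same chromosome. They were selected on peak position alone: a peak was a member when the gap to another peak of the same list was 5000 bp or less, and runs of such peaks were grouped into clusters. Of the 3449 EZH2 peaks in the wild-type rescue, 573 (16.6%) met this rule and formed 251 clusters. The other 2876 peaks are called solitary here.

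EZH2 is the catalytic subunit of Polycomb repressive complex 2, which places methyl groups on lysine 27 of histone H3. The subunit EED holds an aromatic pocket that binds the trimethylated product, H3K27me3, and this binding stimulates the enzyme. The complex is first recruited to limited sites, often rich in unmethylated CpG, and the mark is then thought to spread from these into the chromatin around them. Sites that lie close together are therefore places where marks laid down at neighbouring sites can meet.

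All samples were mouse embryonic fibroblasts in which floxed EED had been removed by a transient Cre lentivirus, with a single knockout clone carried forward. Lentivirus was then used to give that clone a stably expressed EED, either wt or the substitution R302S or Y365A, so the wild-type rescue is itself a knockout line with EED put back. Chromatin was cut with micrococcal nuclease and precipitated for EZH2 or H3K27me3, giving 6 groups of 1 library each. The members come from EZH2 in the EED wt rescue, and their cover was read from the H3K27me3 peaks of the R302S rescue. Peaks of the remaining 4 libraries were not used here. Antibody and EED form differ between the lists and cannot be told apart. No replicate stands behind either list, so no p-value is given, and every interval covers counting error within 1 library only.

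Most clusters were pairs. There were 197 clusters of 2 peaks, 42 of 3, 9 of 4, 1 of 5 and 2 of 6. The 322 gaps inside them had a median of 3200 bp (quartiles 2600 and 4000 bp). Short gaps were the most frequent: 153 were of 3 kb or less, 98 were over 3 and up to 4 kb, and 71 were over 4 and up to 5 kb. Beyond the limit the numbers fell more slowly, with 67 gaps of 5 to 6 kb, 57 of 6 to 7 kb and 64 of 7 to 8 kb. There were 44 of 8 to 9 kb and 51 of 9 to 10 kb. The smallest gap in the whole list was 2200 bp, and no pair of peaks lay closer. From positions alone, several sites and 1 site broken into pieces cannot be told apart.

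**Figure D1:**
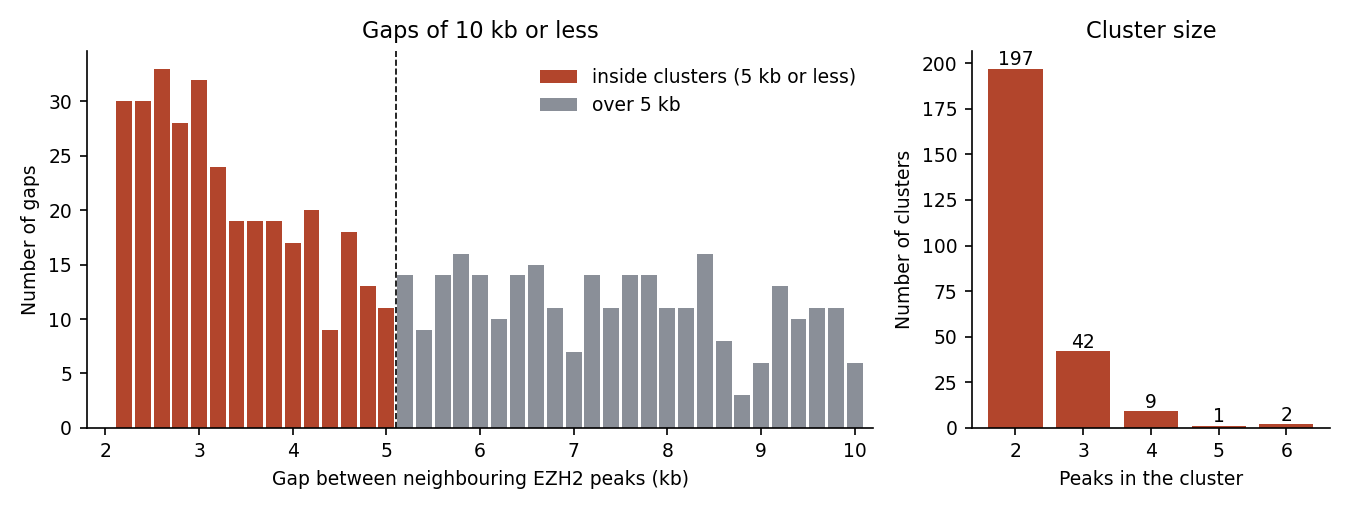
Left, the number of gaps between neighbouring EZH2 peaks by gap length in kb, in steps of 200 bp up to 10 kb; the dashed line marks the limit of 5 kb. Right, the number of clusters by the number of peaks they hold. The counts fall from 153 gaps of 3 kb or less to 71 of 4 to 5 kb and show no trough at the limit, and 197 of the 251 clusters are pairs.

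The limit therefore divides a continuous range of gaps. Just inside it, 66 peaks had a nearest gap of 4600 to 5000 bp and a median width of 2600 bp, and 12 of them had an H3K27me3 peak. Just outside it, 60 peaks had a nearest gap of 5200 to 5600 bp, with a median width of 2900 bp, and 13 of them had one.

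Clustered peaks were wider than solitary ones. Their median width was 3400 bp (quartiles 1800 and 6000 bp, range 800 to 47000 bp), against 2400 bp (1400 and 4000 bp, range 800 to 28200 bp). Together the members held 22.4% of the EZH2 length, 2.67 Mb, with 16.6% of the peaks. Of the 138 EZH2 peaks of 10 kb or more, 51 (37.0%) were clustered. Width and gap come from the same peak calls, so this is a description of the list and not an independent property.

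Within a cluster the peaks were often unequal. The widest peak was at least 2 times as wide as the narrowest in 152 clusters and at least 5 times in 47, and 12 clusters had peaks of equal width. The median cluster spanned 11800 bp, with quartiles of 8600 and 18100 bp and extremes of 4600 and 58800 bp. Peaks of EZH2 filled a median of 68.6% of that span. The next EZH2 peak outside the cluster lay a median of 14.8 kb away (quartiles 7.8 and 42.3 kb), and 90 clusters had one within 10 kb. Clusters thus often sat in wider neighbourhoods of EZH2 sites.

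Chromosomes 17, 4, 15 and 8 held 290 of the members, 50.6%, and 29.2% of the solitary peaks. On chromosome 17, 99 of 300 EZH2 peaks were clustered (33.0%), in 38 clusters, or 1.18 members per Mb. Chromosome 8 had 57 of 232 (24.6%), chromosome 15 had 60 of 246 (24.4%), chromosome 19 had 38 of 178 (21.3%) and chromosome 4 had 74 of 351 (21.1%). At the other end, 4 of 131 peaks on chromosome 9 and 2 of 57 on chromosome 16 were clustered. None of the 50 peaks on X was, where a count of 0 allows a share of up to 6.0%. The density of all EZH2 peaks differed too. Per Mb it was 3.59 on chromosome 17, 3.12 on 19, 2.54 on 15, 2.30 on 4 and 1.85 on 8. It was 1.09 on chromosome 9, 0.617 on 16 and 0.326 on X. Chromosome 11 had 2.52 per Mb, with 16.5% of its peaks clustered. How far the clustered share follows from density was not tested.

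On chromosome 17 all clusters began in the first 60 Mb, where most of its EZH2 peaks lay. The bins of 10 Mb beyond held 2, 4 and 18 of its 300 EZH2 peaks. The stretch from 20 to 30 Mb alone held 97 EZH2 peaks, of which 40 were members, in 16 clusters, and 57 were solitary. Clusters were also close to each other elsewhere. Of the 158 windows of 1 Mb with any cluster, 23 held 3 or more. The window with the most lay on chromosome 11, from 118 to 119 Mb, with 7 clusters and 17 members between 118355001 and 118784800 (mm9, as all positions here). These were 4 pairs and 3 clusters of 3, spanning 7.2 to 23.2 kb. None of the 17 had H3K27me3, and the nearest H3K27me3 peaks lay 117.6 to 526.4 kb from the clusters. Over the 23 windows with 3 or more clusters, 16.3% of members and 14.5% of solitary peaks had H3K27me3.

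The next question was how far the clustered EZH2 sites were covered by H3K27me3 in cells with EED R302S. Fewer than 1 in 4 were. An H3K27me3 peak overlapped 129 of the 573 members by at least 1 bp, which is 22.5% (95% Wilson interval 19.3% to 26.1%). Over all 3449 EZH2 peaks the share was 27.7%, and for solitary peaks 828 of 2876, or 28.8% (27.2% to 30.5%). The difference, members minus solitary peaks, was -6.28 percentage points (interval -10.6 to -1.91, from a variance over clusters). Asking for at least 50% of the peak to be covered gave 17.5% of members, 24.1% of solitary peaks and 23.0% of all.

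That order depended on the unit and on the distance allowed. With each cluster taken as 1 region, 96 of 251 clusters (38.2%) had H3K27me3 on at least 1 peak, 9.46 points above solitary peaks (interval 3.21 to 15.7). With H3K27me3 counted when it lay within 5 kb, the share was 32.5% of members, 29.2% of solitary peaks and 29.7% of all. The difference was then 3.25 points in favour of members, with an interval from -2.41 to 8.91. That distance equals the gap limit, so each member had another EZH2 peak within it and no solitary peak did. The rise for members thus follows in part from the rule. There were 57 members with H3K27me3 within 5 kb but not on them, and in 55 of these cases another peak of the same cluster was overlapped. Only 12 solitary peaks had H3K27me3 nearby but not on them.

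Set beside solitary peaks of like width, clustered peaks had the lower share in all but the narrowest class, with separate intervals in the classes above 2400 bp. Of the members 4400 bp or wider, 87 of 216 had H3K27me3 (40.3%, interval 34.0% to 46.9%), against 64.2% (60.3% to 67.9%) of 603 solitary peaks. That class runs up to 47000 bp, and at its upper end the shares were closer. At 10 kb or more, 32 of 51 members (62.7%) and 63 of 87 solitary peaks (72.4%) had H3K27me3. In the class of 2600 to 4200 bp the shares were 15.8% of 139 members and 38.1% of 743 solitary peaks. From 1600 to 2400 bp they were 8.0% of 125 (4.40% to 14.1%) and 15.5% of 760 (13.1% to 18.3%). The narrowest peaks, of 800 to 1400 bp, went the other way, with 10.8% of 93 members (5.95% to 18.7%) and 5.19% of 770 solitary peaks (3.84% to 7.0%). In these narrower classes the intervals overlap. With the solitary share weighted to the width classes of the members, the difference was -15.2 points (interval -19.6 to -10.7).

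Whole clusters had the lower share in each of 4 classes of EZH2 length, with separate intervals in 1 of them. Clusters with 5 to under 10 kb of EZH2 had H3K27me3 in 27 of 99 cases (27.3%, interval 19.5% to 36.8%), and solitary peaks of that width in 255 of 392 (65.1%, 60.2% to 69.6%). From 10 to under 20 kb the shares were 58.7% of 75 clusters and 71.6% of 74 solitary peaks. At 20 kb or more they were 69.2% of 26 and 76.9% of 13. Under 5 kb they were 13.7% of 51 (6.81% to 25.7%) and 21.3% of 2397 (19.7% to 23.0%). In these 3 classes the intervals overlap.

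**Figure D2:**
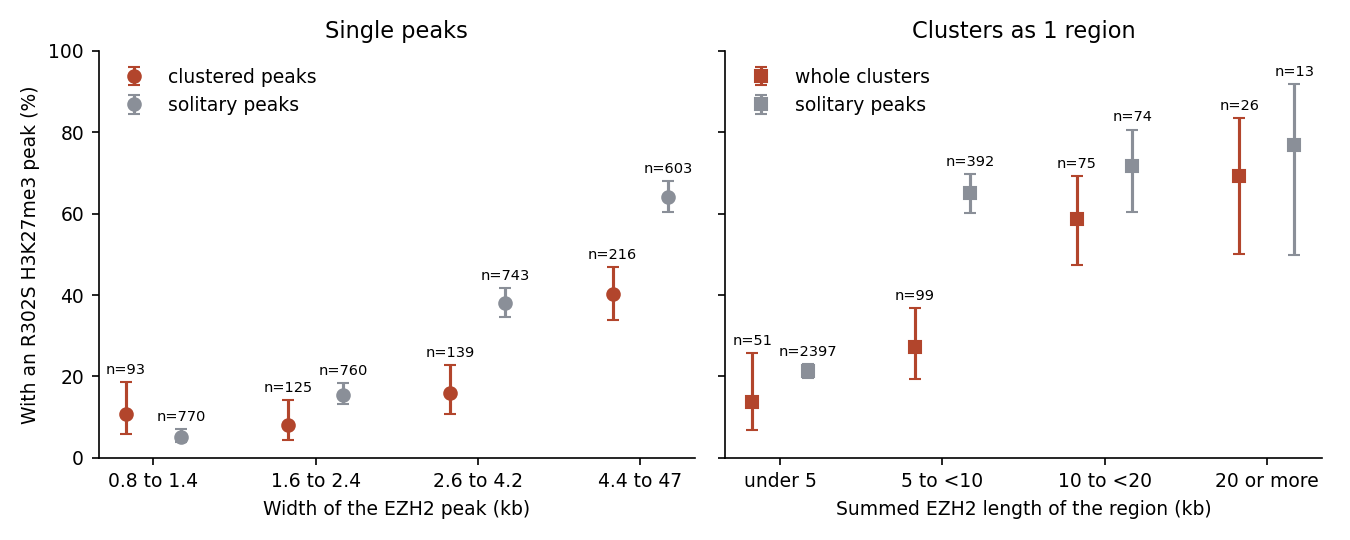
Share of EZH2 peaks with an H3K27me3 peak of the R302S rescue (%), with 95% Wilson intervals and n above each point. Left, single clustered and solitary peaks by peak width in kb; right, whole clusters by the summed width of their peaks beside solitary peaks of that width. Among peaks of 4.4 kb or more, 40.3% of clustered and 64.2% of solitary peaks had H3K27me3.

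Where H3K27me3 was present, the median cover of clustered and solitary peaks was similar. The 129 overlapped members had a median of 89.3% of their length inside H3K27me3 peaks (quartiles 53.5% and 100%), and the 828 overlapped solitary peaks 92.0% (61.1% and 100%). Whole cover was found for 55 members (42.6%) and 368 solitary peaks (44.4%). Over all members, 27.3% of the EZH2 length lay in H3K27me3 peaks, against 35.4% for solitary peaks. Overlapped members were wider than the rest, with medians of 6400 and 2800 bp. The ratio of these medians was 2.29, and among solitary peaks it was 2.28.

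Chromosomes differed widely. On chromosome 17, 11 of 99 members had H3K27me3 (11.1%, interval 6.32% to 18.8%), and 14.4% of its solitary peaks. The share was 13.3% of 60 members on chromosome 15, beside 21.0% of solitary peaks there. It was 17.5% of 57 members beside 25.1% on chromosome 8, and 17.6% of 74 beside 20.9% on chromosome 4. The highest share among chromosomes with 10 or more members was on chromosome 7, where 12 of 15 members had it (80.0%, 54.8% to 93.0%). Its solitary peaks also had the highest share of any chromosome, 43.4%. Chromosome 1 followed with 11 of 20 members (55.0%, 34.2% to 74.2%) and 32.4% of solitary peaks. All 7 clusters on chromosome 7 had H3K27me3 on at least 1 peak, and 4 had it on every peak.

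Chromosomes 17, 8, 15, 19 and 4 had the highest clustered shares. On these, 14.4% to 25.1% of solitary peaks had H3K27me3, against 28.8% of all solitary peaks. Chromosome 11 came next with 16.5% of its peaks clustered, and 33.1% of its solitary peaks had H3K27me3. Members were below solitary peaks on 11 of the 14 chromosomes with 10 or more members, and above them on chromosomes 1, 7 and 19. Within single chromosomes the intervals of both shares overlap, except on chromosome 7, where the 15 members lay in 7 clusters. With the solitary share weighted to the chromosomes of the members, the difference shrank to -2.88 points, with an interval from -7.28 to 1.51. With weighting to chromosome and width class together it was -10.3 points (-14.8 to -5.75). Without chromosome 17 the unweighted difference was -4.97 points (-9.87 to -0.0789). On the 4 chromosomes with the most members, 14.5% of members and 20.3% of solitary peaks had H3K27me3. On the rest the shares were 30.7% of 283 members and 32.3% of solitary peaks.

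**Figure D3:**
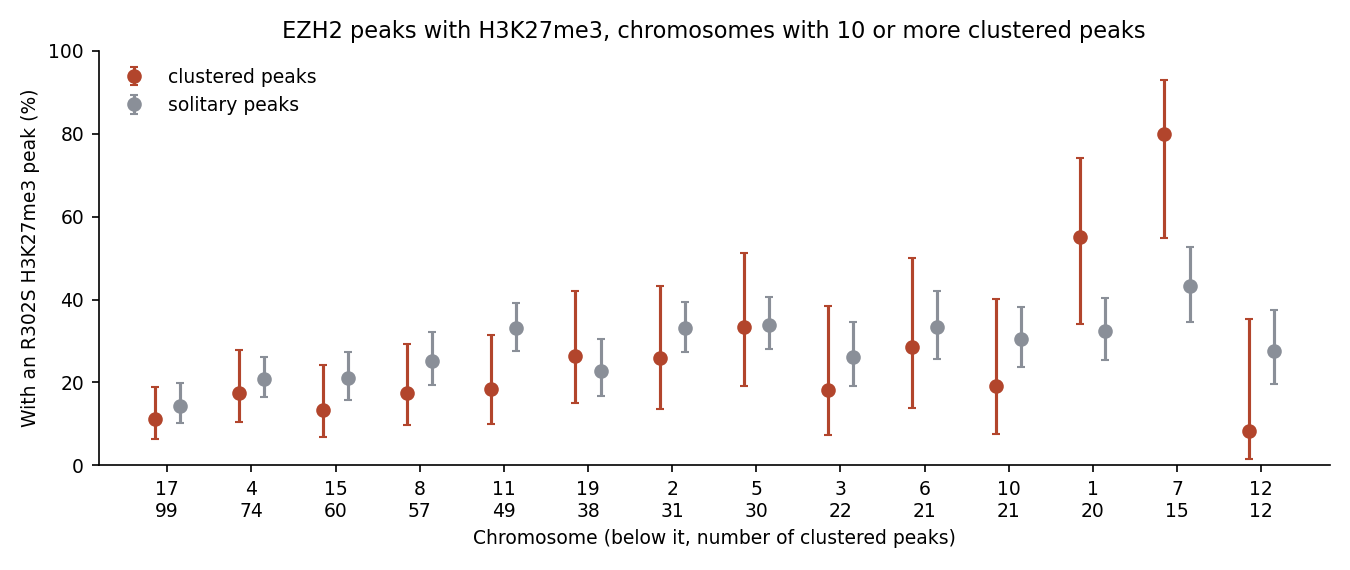
Share of clustered and of solitary EZH2 peaks with an R302S H3K27me3 peak (%) on the 14 chromosomes with 10 or more clustered peaks, ordered by the number of clustered peaks, with 95% Wilson intervals. The share of clustered peaks runs from 8.33% of 12 on chromosome 12 and 11.1% of 99 on chromosome 17 to 80.0% of 15 on chromosome 7.

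Clusters seldom had H3K27me3 on every peak. In 155 of the 251 clusters (61.8%, interval 55.6% to 67.5%) no peak had H3K27me3, in 75 (29.9%) some peaks had it, and in 21 (8.37%, 5.54% to 12.5%) every peak did. Among pairs the counts were 125, 56 and 16. Of the 42 clusters of 3, 22 had no overlapped peak, 10 had 1, 5 had 2 and 5 had 3. None of the 12 clusters of 4 to 6 peaks had it on every peak. With 22.5% of all members overlapped, 12 clusters are too few to set large ones apart. Clusters with no H3K27me3 held less EZH2, a median of 6.8 kb, than those covered on some peaks (11.4 kb) or on every peak (11.8 kb). For the 155 uncovered clusters the nearest H3K27me3 peak lay a median of 130.6 kb away (quartiles 43.6 and 361.9 kb), and for 2 of them within 5 kb.

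Inside a cluster, H3K27me3 was found mostly at the wider peaks. Leaving out ties, the widest peak had it in 84 of 239 clusters (35.1%, interval 29.4% to 41.4%) and the narrowest in 30 of 237 (12.7%, 9.01% to 17.5%). End and inner peaks had similar shares. In clusters of 3 or more, 25 of 108 end peaks (23.1%, 16.2% to 31.9%) and 16 of 71 inner peaks (22.5%, 14.4% to 33.5%) had it, with median widths of 3400 and 4600 bp.

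Neighbouring peaks in a cluster shared their state more often than the product of their shares gives. Of the 322 neighbouring pairs, 33 had H3K27me3 on both peaks, 79 on 1 and 210 on neither. The product of the shares would give 16.3 pairs with both and 112 with 1. An excess was also present outside clusters, with 32 pairs against 19.3 by product at gaps of 5 to 20 kb and 53 against 39.6 at 20 to 100 kb. This product ignores that shares differ between chromosomes and widths, and how much either adds was not tested. Among pairs with H3K27me3 on at least 1 peak, it lay on both in 29.5% (interval 21.8% to 38.5%). For neighbours 5 to 20 kb apart that value was 17.7% (12.8% to 23.9%), for those 20 to 100 kb apart 19.0% (14.8% to 24.0%), and for those over 500 kb apart 22.9% (19.6% to 26.6%). Each of these intervals overlaps that of the clustered pairs. In 66 of the 79 pairs with 1 overlapped peak it was the wider one. That also held outside clusters, in 138 of 149 such pairs at gaps of 5 to 20 kb and 203 of 226 at 20 to 100 kb.

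**Figure D4:**
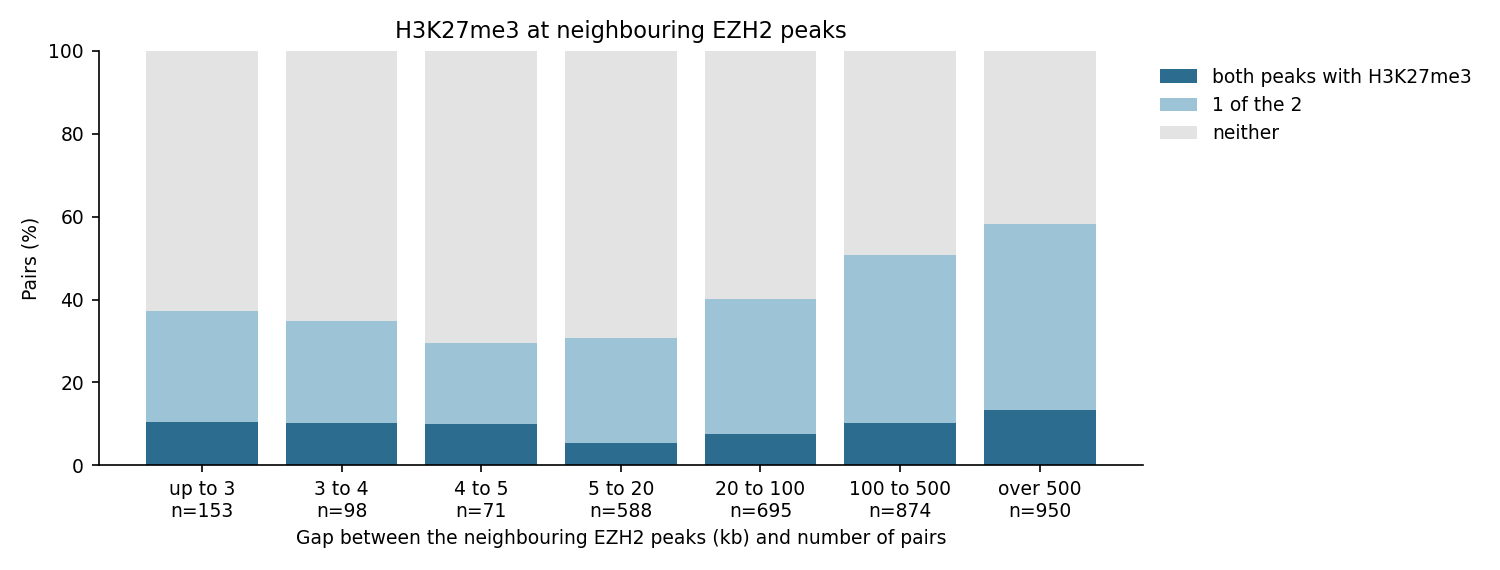
Neighbouring EZH2 peaks by the gap between them in kb, with the share of pairs (%) in which both, 1 or neither had an R302S H3K27me3 peak; the number of pairs stands below each bar. Up to 3, 3 to 4 and 4 to 5 kb apart, 10.5%, 10.2% and 9.86% of pairs had it on both peaks, and at 5 to 20 kb 5.44% did. The share was 7.63% at 20 to 100 kb, 10.2% at 100 to 500 kb and 13.4% over 500 kb.

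The gaps show whether called H3K27me3 peaks ran on between neighbouring sites. The smallest gap and width were 1200 and 400 bp in the H3K27me3 list, and 2200 and 800 bp in the EZH2 list. As deposited, H3K27me3 entered 52 of the 322 gaps and spanned 20 of them whole (6.21%, interval 4.06% to 9.40%). With H3K27me3 peaks joined and filtered to the limits of the EZH2 list, 7.45% were spanned whole. The values below are for the list as deposited. Between 2 overlapped peaks the gap was spanned whole in 20 of 33 cases (60.6%, 43.7% to 75.3%), entered in part in 10 and left without H3K27me3 in 3, and 69.3% of the length of these gaps was covered. With 1 overlapped neighbour, 22 of 79 gaps held some H3K27me3, over 11.8% of their length. None of the 210 gaps with no overlapped neighbour held any. In the shortest class, 2200 to 3000 bp, 13 of 16 gaps between overlapped peaks were spanned, and in the classes of 3200 to 4000 and 4200 to 5000 bp 4 of 10 and 3 of 7 were.

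The H3K27me3 peaks at clusters were wider at the median than those at solitary EZH2 peaks, mainly where they met 2 or more members. The 113 that met a member were 5800 bp wide at the median (quartiles 2600 and 11800 bp), and the 835 that met solitary EZH2 peaks only had 4000 bp (2200 and 6800 bp). Those that met 1 member had a median of 4400 bp (quartiles 2400 and 7500 bp), close to that at solitary EZH2 peaks. The 18 that met 2 or more members had a median of 17000 bp. A peak must exceed the gap to do so, so that width follows in part from the count. Of their length 66.4% lay in EZH2 peaks, against 86.0% for the 95 that met 1 member.

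The 3 clusters with the most peaks lay on chromosome 17 and had no H3K27me3. A cluster of 6 peaks (8205201 to 8260400) spanned 55.2 kb with 39.0 kb of EZH2, in peaks of 3.0, 5.2, 7.2, 15.8, 1.6 and 6.2 kb. Its nearest H3K27me3 peak lay 365.2 kb away. A second cluster of 6 (7273001 to 7318000) held 28.8 kb, with its nearest H3K27me3 peak at 795.4 kb. A cluster of 5 (25599001 to 25640000) held 28.0 kb and was 26.8 kb from one. Clusters of 3 (13368401 to 13412400, 36.0 kb) and of 4 (27543601 to 27585400, 30.4 kb) had none within 925.6 and 59.6 kb. These 5 were the clusters with the most EZH2 length and no H3K27me3, and all 5 were on chromosome 17.

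Some clusters of similar span had H3K27me3 on every peak. Their widest peaks were of 25.2, 29.0 and 47.0 kb, against 7.0 to 17.8 kb in the 5 clusters above. On chromosome 19 a cluster of 3 (44793601 to 44839400) had 36.2 of its 39.6 kb inside H3K27me3 (91.4%), and a single H3K27me3 peak of 38.8 kb ran from before its middle peak to past its last. On chromosome 11 a pair of 29.0 and 7.8 kb (98175001 to 98214800) was covered to 97.8%, with the gap of 3.0 kb between them bare. The pair on chromosome 2 with the largest span of all clusters (74492201 to 74551000, 58.8 kb) joined a peak of 47.0 kb to one of 9.6 kb across a gap of 2.2 kb. An H3K27me3 peak of 29.2 kb spanned that gap, and 55.8% of the EZH2 length was covered.

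Other clusters were covered on one side only. On chromosome 17 a cluster of 4 (36263801 to 36319600) had 8.0 of 45.0 kb covered, on its last peaks of 15.8 and 7.6 kb, and none on those before them, of 14.2 and 7.4 kb. On chromosome 4 a cluster of 4 (116547201 to 116588200) had H3K27me3 on 86.1% of its first peak of 7.2 kb and none on the following peaks of 10.6, 7.0 and 6.0 kb. On chromosome 19 a pair (45199601 to 45241200) had 55.9% of its 35.4 kb peak covered and none of the 3.8 kb one, while an H3K27me3 peak ended 0.2 kb into the gap. A further pair on that chromosome (6490001 to 6520200) had 88.8% of a 26.8 kb peak covered and none of a 1.2 kb one. On chromosome 2 a pair (31479001 to 31512600) had its 25.4 kb peak wholly covered and H3K27me3 over 4.0 of the 4.6 kb gap, ending short of the 3.6 kb peak. A cluster of 3 on chromosome 19 (45296201 to 45328600) had 23.6 kb wholly covered, 75% of a 1.6 kb peak and none of a 2.2 kb peak.

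The longest gaps spanned by 1 H3K27me3 peak lay in smaller clusters. On chromosome 7 a gap of 4.6 kb (138689801 to 138694400) between peaks of 5.8 and 6.6 kb was inside an H3K27me3 peak of 22.6 kb that extended past both. On chromosome 1 a gap of 4.4 kb (74934601 to 74939000) lay in a peak of 19.0 kb, and on chromosome 5 another of 4.4 kb (148121001 to 148125400) in one of 17 kb. On chromosome 13 a gap of 4.0 kb (31713001 to 31717000) separated EZH2 peaks of 1.6 and 2.4 kb that both lay in H3K27me3 of 12.0 kb. On chromosome 7 a gap of 3.8 kb (86739201 to 86743000) lay in H3K27me3 of 13.2 kb. At all 5, both EZH2 peaks beside the gap were overlapped, which nearly follows from the choice of gaps spanned whole.

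**Figure D5:**
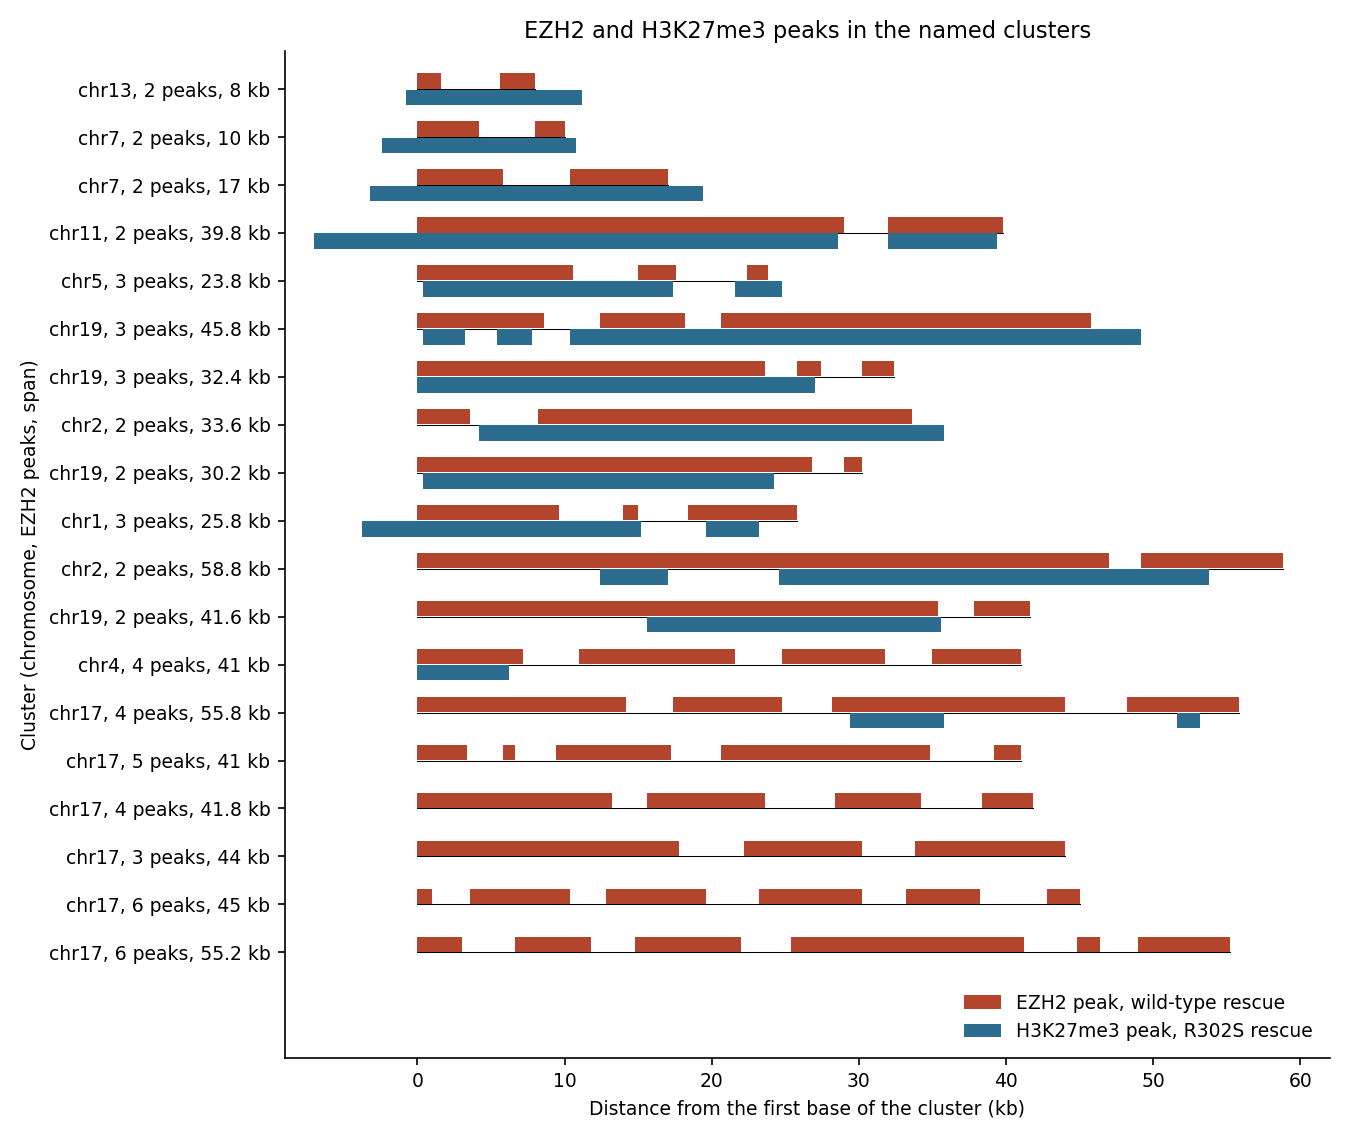
EZH2 peaks of the wild-type rescue (upper bars) and H3K27me3 peaks of the R302S rescue (lower bars) in the 19 named clusters, to scale, by distance in kb from the first base of the cluster, ordered by the share of EZH2 length covered. The 3 upper rows are wholly covered with the gap spanned, and the 5 lowest rows, all on chromosome 17, hold no H3K27me3.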

How the data were processed

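Bowtie 1.0.0, deepTools and the build mm9 are named in the submitters' processing notes; for the peak caller, thresholds and input control, nothing is given in the sources used here. The deposited lists hold peak positions on a grid of 200 bp (ends taken as the last base) and no count, score or p-value, so depth is unknown.

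Gaps were the next start minus the last base plus 1. Clusters and overlaps were computed with Python 3.11.15, numpy 2.4.6 and pandas 2.3.3, tested on simulated data and checked against bedtools 2.31.1, with the same counts. Shares have 95% Wilson intervals (scipy 1.17.1), which take the units counted as independent. Intervals of unweighted differences between peaks use a linearized variance over clusters. Weighted differences use it for members, with a binomial variance within each class or chromosome for solitary peaks. With each cluster joined to 1 region, the variance was taken over regions. Figures used matplotlib 3.10.9.

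Members and rules were chosen with earlier results of these data known. Named were 5 clusters or gaps under each of 6 rules: most peaks, largest span, most EZH2 length covered, most EZH2 length with no peak covered, most with some covered, and longest gap spanned. No genes or sequences are given, since the gene and promoter tables at hand are of GRCm38 and no mm9 genome was used here.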

Additional observations from a re-analysis of the deposited data

How the results depend on the processing

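The difference between members and solitary peaks (-6.28 points) lay below 0 in 15 of 17 alternatives, with the interval wholly below 0 in 12. The interval reached above 0 at a gap limit of 3 kb (-5.07), for clusters of 3 or more (-5.88) and with chromosomes weighted (-2.88). The difference was above 0 with each cluster joined to 1 region (9.46) and with H3K27me3 within 5 kb (3.25), a distance equal to the gap limit. It was -11.6 at a gap limit of 20 kb, -19.1 in the wider 50% of the EZH2 list, -15.2 and -15.8 with width classes and deciles weighted, and -25.5 for joined clusters with EZH2 length weighted. Weighting to chromosomes, alone or with width, and to EZH2 length was chosen after seeing the data. The share of members overlapped (22.5%) was 17.5% with 50% of the peak covered, 32.5% within 5 kb, 30.7% in the wider 50% and 38.2% for joined clusters. Gap limits of 3, 4, 10 and 20 kb made 8.41%, 13.2%, 28.8% and 40.4% of EZH2 peaks members.

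Clusters with no overlapped peak (61.8%) were 70.1% with 50% of the peak covered and 55.6% for clusters of 3 or more. Clusters with some (29.9%) were 35.8% at 20 kb, 23.9% with 50% covered and 12.7% within 5 kb, where those with every peak (8.37%) were 26.3%. Gaps spanned whole (6.21%) were 2.75% at 20 kb, and 9.94% were at least 50% covered. The width ratio of 1.42 was 1.17 at 20 kb and 1.58 for clusters of 3 or more. The share of length covered and the share on chromosome 17 stayed inside their intervals in the 6 and 4 alternatives run. Sequence composition was not run, with no mm9 genome used here. No paired analysis was possible because there was 1 library in every group. With depth unknown, sites under either threshold cannot be assessed.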

Other observations

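Over the whole EZH2 list, the share of peaks with R302S H3K27me3 went with the distance to the nearest EZH2 peak. It was 23.1% of 290 peaks with a neighbour within 3 kb, 23.5% at 3 to 4 kb, 19.7% at 4 to 5 kb, 19.0% at 5 to 10 kb and 20.2% at 10 to 20 kb. It was 24.8% at 20 to 50 kb, 30.9% at 50 to 100 kb, 33.6% at 100 to 500 kb and 38.7% of 491 peaks with none within 500 kb. The lowest values thus lay at 4 to 20 kb, on both sides of the limit of 5 kb, and median width fell from 3400 bp in the first class to 2200 bp in the last. The share of peaks on chromosome 17 fell from 18.6% to 1.83% over the same classes, and its part in the trend was not tested here.

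In the 23 windows of 1 Mb with 3 or more clusters, 32 of 196 members had H3K27me3 (16.3%), against 22.5% of all members and 27.7% of all EZH2 peaks. Solitary peaks in the same windows had it in 30 of 207 cases (14.5%), and 14 of the 23 windows lay on chromosomes 17, 4, 15 and 8. In 5 windows at least 3 members had it: 4 of 7 on chromosome 19 from 45 to 46 Mb, 3 of 7 from 44 to 45 Mb, and 3 of 6 in 1 window each of chromosomes 2, 4 and 6. In 4 windows no member had it, among them chromosome 17 from 24 to 25 Mb with 12 members.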
